A study of Homo sapiens with 14 samples.

Results

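The genes described here are 9 genes of the selenoprotein system: the glutathione peroxidases *GPX1*, *GPX2* and *GPX4*, the selenophosphate synthetase *SEPHS2*, the insertion factor *SECISBP2*, and the selenoproteins *SEPP1*, *SEPW1*, *SELT* and *SELK*. They were taken by symbol from a table of RPKM values (reads per kilobase of transcript, scaled to the mapped reads of a library) and make up 9 of its 21574 genes. The study silenced ADAR1, an enzyme that deaminates adenosine to inosine in double-stranded RNA, in cells labelled HepG2, an established line from a human liver carcinoma, and asked how RNA structure, RNA level and translation changed. Knockdown (KD) cells received siADAR1 and control cells a scrambled siRNA. Labels and methods alike call the cells stably transfected. The methods also name a nucleofection device and a silencing time counted in hours, so whether the knockdown was stable or transient is not clear. There were 14 libraries. PARS-seq, in which poly-A RNA is probed in vitro with the nuclease S1 (which cuts single-stranded RNA) or V1 (which cuts paired RNA), had 8 libraries, with 2 control and 2 KD libraries for each nuclease. RNA-seq had 1 library per condition, and Ribo-seq, which sequences the fragments of mRNA that ribosomes protect, had 2 per condition.

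Selenoproteins contain selenocysteine, an amino acid encoded by a UGA codon that elsewhere ends translation. Reading UGA as selenocysteine requires an RNA hairpin in the 3′UTR of the mRNA, termed the SECIS element, which recruits the protein encoded by *SECISBP2*, together with a dedicated tRNA and the selenium donor that *SEPHS2* makes. A ribosome that stops at the UGA upstream of an exon junction can instead mark the mRNA for nonsense-mediated decay, and *GPX1* is a well-known substrate. Liver cells are the main source of the plasma selenium carrier encoded by *SEPP1*.

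The selenocysteine codon was located on the GENCODE annotation for GRCh37 in 8 of the 9 members, and *SECISBP2*, which is not itself a selenoprotein, has none. The codons of the 6 selenoprotein genes whose levels could be compared are shown here, because their place in the coding sequence differs between members. Each is written 5′ to 3′ along the spliced mRNA, with the selenocysteine codon (TGA in DNA letters) in capitals and 12 bases on either side.
GPX1: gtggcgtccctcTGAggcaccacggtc
GPX4: gtggcctcccagTGAggcaagaccgaa
SEPHS2: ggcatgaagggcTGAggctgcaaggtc
SEPW1: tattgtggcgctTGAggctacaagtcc
SELT: atttgtgtttccTGAggttataggcgg
SELK: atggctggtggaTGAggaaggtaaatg
The codon of *GPX1* lies at chr3:49395565-49395567 on the minus strand, in coding exon sequence of exon 1 of 2, as codon 49 of 203. In *GPX4* it lies at chr19:1105402-1105404 on the plus strand, in exon 3 of 7, as codon 73 of 197. *SEPHS2* carries it at chr16:30456869-30456871 on the minus strand, in the single exon of the gene, as codon 60 of 448. In *SEPW1* the position is chr19:48283989-48283991 on the plus strand, exon 2 of 6, codon 13 of 87. The codon of *SELT* is at chr3:150340179-150340181 on the plus strand, exon 2 of 6, codon 49 of 195. *SELK* differs from these, with its codon at chr3:53919858-53919860 on the minus strand, in exon 4 of 5, as codon 92 of 94, so that the bases shown reach past the stop codon into the 3′UTR. The stretches shown for *SEPW1*, *SELT* and *SELK* each span 2 exons.

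The distance from this codon to the last exon junction was 105 bases in *GPX1*, 243 in *SEPW1*, 342 in *GPX4* and 470 in *SELT*, but 5 in *SELK*, and *SEPHS2* has no junction. The base that follows the codon was G in 7 of the 8 members, the exception being the first of the 10 selenocysteine codons of *SEPP1*, which is followed by T. For the first such codon of all 25 human selenoprotein genes it was G in 13, C in 6, A in 3 and T in 3.

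Before the members were compared, the libraries were checked against their labels. RPKM values of a gene are whole multiples of the value of 1 read, which gave the relative depth of the Ribo-seq and RNA-seq libraries. All of 13306 genes above 0 in at least 4 libraries fitted whole reads, within a tolerance of 0.001 that widened with the number of reads. With the shallowest library, Ribo-seq control replicate 1, set to 1.00, Ribo-seq control replicate 2 had a depth of 3.34, KD replicate 1 of 1.41 and KD replicate 2 of 2.42, and RNA-seq had 40.9 in control and 30.3 in KD. These reads are the smallest whole numbers that fit, and a common multiple of them would fit as well. They summed to 983148, 3277633, 1387312 and 2373050 in these 4 Ribo-seq libraries, and the median gene with a mean of at least 1 RPKM had 30, 87.0, 43.0 and 69.0 reads. The intervals given for ratios of libraries are exact 95% Clopper-Pearson intervals on these reads, cover counting error only and compare libraries, not conditions.

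*ADAR*, the target of the siRNA, was at 54.8 RPKM in control and 15.4 in KD RNA-seq, a ratio of 0.280 (0.270 to 0.291). In PARS-seq, for which the table gives the authors' mean of the S1 and V1 library of each replicate, it was at 40.7 and 46.8 in control against 15.1 and 15.1 in KD. Ribo-seq gave 43.6 and 55.5 in control, 8.73 in KD replicate 1 and 44 in KD replicate 2. *ADAR* was thus low in every KD column of the table but one, where the PARS-seq libraries were not seen singly: the Ribo-seq library labelled KD replicate 2 lay between the controls, with a KD to control ratio of 0.794 (0.725 to 0.869) against 0.200 (0.156 to 0.255) in the other pair. Ribo-seq differences of the members are therefore given with and without that library.

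The hepatocyte markers did not match the HepG2 label. All 8 of 8 markers (*ALB*, *AFP*, *APOA1*, *APOB*, *TTR*, *SERPINA1*, *HNF4A* and *TF*) were under 1 RPKM in all 10 columns of the table, with a highest value of 0.803 for *HNF4A*, the most abundant of them. *SEPP1*, whose product is secreted mainly by the liver, was also low, at 1.22 RPKM in control RNA-seq and 0.680 in KD. Of the other cell type markers, *COL1A1* reached 54.7 RPKM and *CD68* 22.7, whereas *COL1A2*, the fibroblast partner of *COL1A1*, was at most 0.123, *DCN* at most 7.61, and *PTPRC* and *LYZ* and the endothelial and erythroid markers were under 1 RPKM in all columns. The cells are called by their label, and their identity was not tested further.

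In RNA-seq the members spanned a wide range of levels. *GPX4*, which reduces lipid hydroperoxides in membranes, was at 474 RPKM in control and 478 in KD, above 99.0% of the 10946 genes with a mean of at least 1 RPKM in control. *GPX1*, which reduces hydrogen peroxide in the cytosol, followed with 419 and 385. *SEPW1*, a small redox protein, was at 56.8 and 57.3, and *SEPHS2* at 34.7 and 37.6. Both peroxidases thus stood several times above every other member. *SELK* and *SELT*, which encode proteins of the endoplasmic reticulum membrane, were at 12 and 11.5 and at 5.80 and 6.41. *SECISBP2* was at 10.6 and 9.12. The order of the members was the same in both RNA-seq libraries, although *SELK* and *SECISBP2* were close to each other in it. *GPX2*, a peroxidase of the gut epithelium, was listed at 0 in both. In this table a 0 need not mean absence, since the ribosomal protein gene *RPS18* was listed at 0 in every column.

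The same genes ranked differently in the other assays. In Ribo-seq, *GPX4* spanned 32.7 to 117 RPKM over the 4 libraries and *GPX1* 45.0 to 71.5, so that these neighbours overlapped. *SEPHS2* (10.2 to 30.1), *SELK* (12.2 to 25.4), *SEPW1* (6.47 to 18.9) and *SELT* (5.71 to 13.3) overlapped as well, and *SECISBP2* (4.06 to 5.34) was below all of them. In PARS-seq, *SELK* (47.1 to 70.3) overlapped *GPX1* (43.2 to 92.6) and was above *SEPW1* (30.4 to 41.2), the reverse of its place in RNA-seq. *SEPHS2* (25.3 to 33.1) overlapped *SEPW1*, *SELT* (17.4 to 20.8) lay below both, and *SECISBP2* (6.95 to 8.98) was again lowest of the 7. *GPX2* and *SEPP1* stayed at or below 0.322 and 0.645 RPKM in these assays. With means under 1 RPKM in all 3 assays, these 2 members failed the filter on low values, and 7 of 9 members entered each comparison. RefSeq lists pseudogenes of *GPX1* (2), *SEPHS2* (1), *SEPW1* (1), *SELT* (2) and *SELK* (3), none with a row in the table, so the values of these genes are uncertain where reads were shared with such copies.

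**Figure D1:**
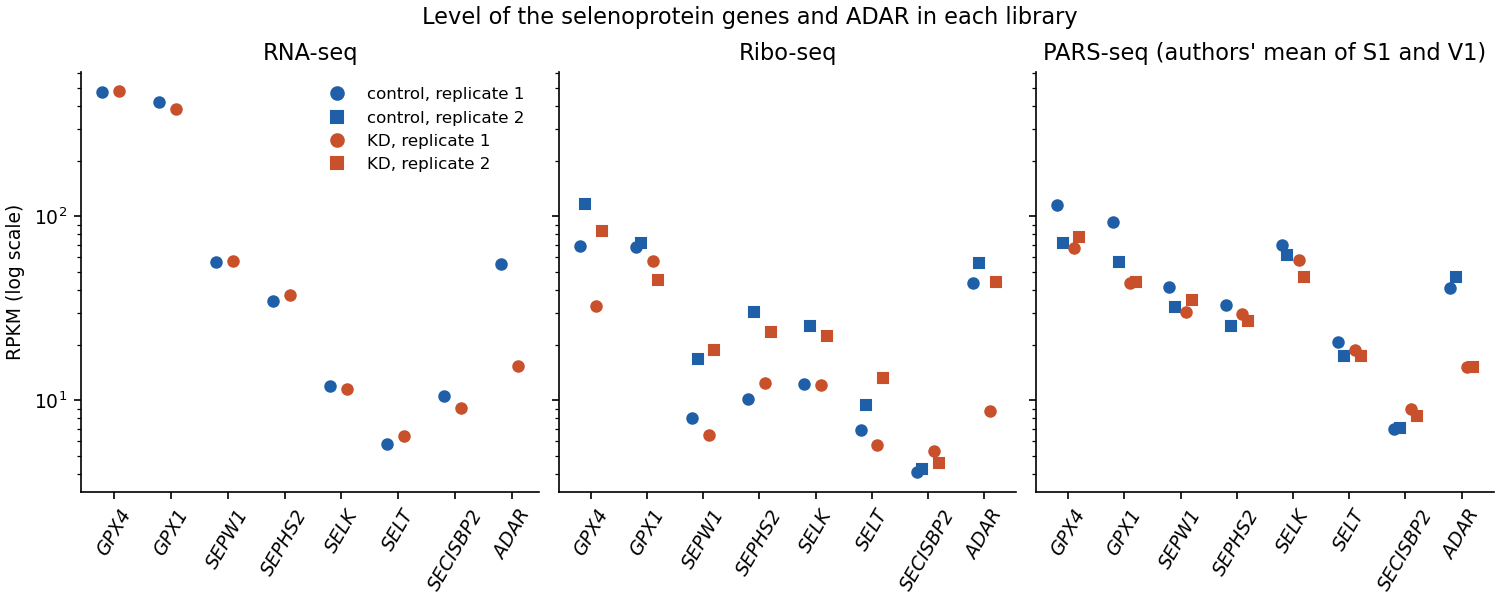
RPKM (log scale) of the 7 members past the filter and of *ADAR* in RNA-seq, Ribo-seq and PARS-seq; each point is 1 library, or for PARS-seq the authors' mean of an S1 and a V1 library, with control in blue, KD in orange, replicate 1 as circles and replicate 2 as squares. *GPX4* and *GPX1* lie above 380 RPKM in RNA-seq, and *SELK* is at 12 RPKM in control RNA-seq and 70.3 in PARS-seq control replicate 1.

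The Ribo-seq to RNA-seq ratio of a gene relates ribosome-protected fragments to its RNA and serves as a measure of translation efficiency. For *GPX1* it was 0.162 (0.129 to 0.202) and 0.171 (0.151 to 0.192) in the control replicates, against 0.149 (0.120 to 0.182) and 0.117 (0.0975 to 0.139) in the KD replicates. *GPX4* gave 0.146 (0.116 to 0.181) and 0.247 (0.225 to 0.271) in control against 0.0684 (0.0517 to 0.0889) and 0.174 (0.153 to 0.198) in KD. Both peroxidases thus had a ratio far below that of the median gene, which was 0.733 and 0.614 in control against 0.745 and 0.703 in KD. *GPX1* stood at percentiles 6.96 and 2.93 of genes in the control replicates and *GPX4* at 5.69 and 7.15. *SEPW1* was also low, at 0.141 (0.0565 to 0.290) and 0.295 (0.218 to 0.392) in control against 0.113 (0.0487 to 0.223) and 0.330 (0.235 to 0.451) in KD. In the Ribo-seq to PARS-seq ratio, given below, both peroxidases stood below the median gene in control replicate 1 and above it in control replicate 2.

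*SELK* and *SELT* were at the other end of the Ribo-seq to RNA-seq ratio. The ratio of *SELK* was 1.02 (0.487 to 1.90) and 2.11 (1.61 to 2.74) in control against 1.06 (0.570 to 1.80) and 1.94 (1.38 to 2.67) in KD. For *SELT* it was 1.19 (0.758 to 1.78) and 1.63 (1.33 to 2.00) in control against 0.891 (0.588 to 1.30) and 2.08 (1.69 to 2.55) in KD. All 8 of these ratios were above the median gene of their library. *SECISBP2* lay between the groups, at 0.384 (0.210 to 0.647) and 0.403 (0.297 to 0.536) in control against 0.586 (0.381 to 0.863) and 0.50 (0.351 to 0.691) in KD. *SEPHS2* depended on the replicate, with 0.293 (0.186 to 0.441) and 0.867 (0.755 to 0.992) in control against 0.333 (0.238 to 0.455) and 0.628 (0.522 to 0.75) in KD, so that replicate 2 was above replicate 1 in both conditions.

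That replicate difference was shared by several members. The ratio of Ribo-seq replicate 2 to replicate 1 was 2.96 in control and 1.88 in KD for *SEPHS2*, 2.10 and 2.92 for *SEPW1*, 2.07 and 1.84 for *SELK*, 1.69 and 2.54 for *GPX4*, and 1.37 and 2.34 for *SELT*. All 5 were higher in replicate 2 under both siRNAs, while the median gene was lower, with a log2 ratio of -0.24 in control and -0.09 in KD over 10882 genes. Among these genes they stood at percentiles 92.4 and 85.3 (*SEPHS2*), 85.4 and 93.4 (*SEPW1*), and 85.6 and 84.5 (*SELK*). *GPX4* stood at 80.7 and 92.6 and *SELT* at 72.3 and 89.6. Many other genes thus had ratios as high, and the difference was not particular to the members. *GPX1* (1.05 and 0.787) and *SECISBP2* (1.05 and 0.854) were not higher in replicate 2 under both siRNAs. Replicate 1 was also the shallower library in both conditions, and the part of depth in this difference was not tested.

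The order of the ratios broadly ran with base composition. GC content of the transcript was 62.4% in *GPX1*, 62.3% in *GPX4*, 56.2% in *SEPW1*, 51.2% in *SEPHS2*, 45.9% in *SECISBP2*, 41.3% in *SELK* and 34.9% in *SELT*. Across 8276 genes (81.6% of those past the filter) the Ribo-seq to RNA-seq ratio correlated with GC content with a Spearman coefficient of -0.73 and -0.63 for the controls and -0.75 and -0.78 for KD, where genes are not independent replicates and all ratios of a condition share 1 RNA-seq library. In control replicate 1 the median ratio was 2.03 among genes with at most 42.2% GC and 0.328 among those with at least 57.3%. When each member was set among genes within 2 percentage points of its own GC content, *GPX1* stood at percentiles 16.5 and 4.96 in the control replicates, *GPX4* at 12.3 and 13.2, and *SECISBP2* at 11.4 and 14.5. *SEPW1* stood at 6.63 and 20.7, *SEPHS2* at 15.3 and 84.6, *SELT* at 17.2 and 50.6, and *SELK* at 27.1 and 92.4. The low ratios of *GPX1* and *GPX4* thus stayed below the median of genes of like GC content (0.305 and 0.395 for *GPX1*), whereas *SELT*, at 1.19 and 1.63, was below the median of 2.74 in replicate 1 and at the median of 1.63 in replicate 2.

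The PARS-seq to RNA-seq ratio, in which ribosomes play no part, gave a related order. It was 5.86 and 5.16 in control against 5.02 and 4.08 in KD for *SELK*, and 3.58 and 3.0 in control against 2.94 and 2.72 in KD for *SELT*. For *GPX1* it was 0.221 and 0.135 in control against 0.112 and 0.114 in KD, and for *GPX4* 0.241 and 0.152 in control against 0.141 and 0.161 in KD. *SEPW1*, low in the Ribo-seq ratio, was nearer the middle here, at 0.725 and 0.567 in control (percentiles 42.0 and 35.0). *GPX1* and *GPX4* were thus low in both ratios, which share the RNA-seq value, and *SEPW1* in only the Ribo-seq one. The Ribo-seq to PARS-seq ratio leaves that value out and gave a different order. In the control replicates it was 0.733 and 1.27 for *GPX1* and 0.604 and 1.63 for *GPX4*. The median gene was at 0.831 and 0.723. In both controls *SELK* (0.175 and 0.409), *SELT* (0.332 and 0.545) and *SEPW1* (0.194 and 0.520) were below the median gene. So was *SECISBP2* (0.583 and 0.604), whereas *SEPHS2* was at 0.307 and 1.19. The Ribo-seq to PARS-seq ratio rose with GC content, with Spearman coefficients of 0.26 and 0.47 in the controls across 8355 genes. Its median was 0.683 and 0.463 among genes with at most 41.6% GC. Among genes with at least 56.7% GC it was 1.17 and 1.34. The PARS-seq to RNA-seq ratio also ran with GC content, with Spearman coefficients of -0.79, -0.76, -0.78 and -0.73 across 8252 genes. Among genes of like GC content *GPX1* stood at percentiles 37.2 and 10.2 of this ratio in the control replicates, *GPX4* at 44.2 and 14.2, *SEPW1* at 75.3 and 60.5, and *SELK* at 89.0 and 86.4. *SECISBP2* stood at 16.0 and 17.8, *SEPHS2* at 65.2 and 51.3, and *SELT* at 44 and 42.1. The part of base composition in the ratios of the members was not tested further.

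**Figure D2:**
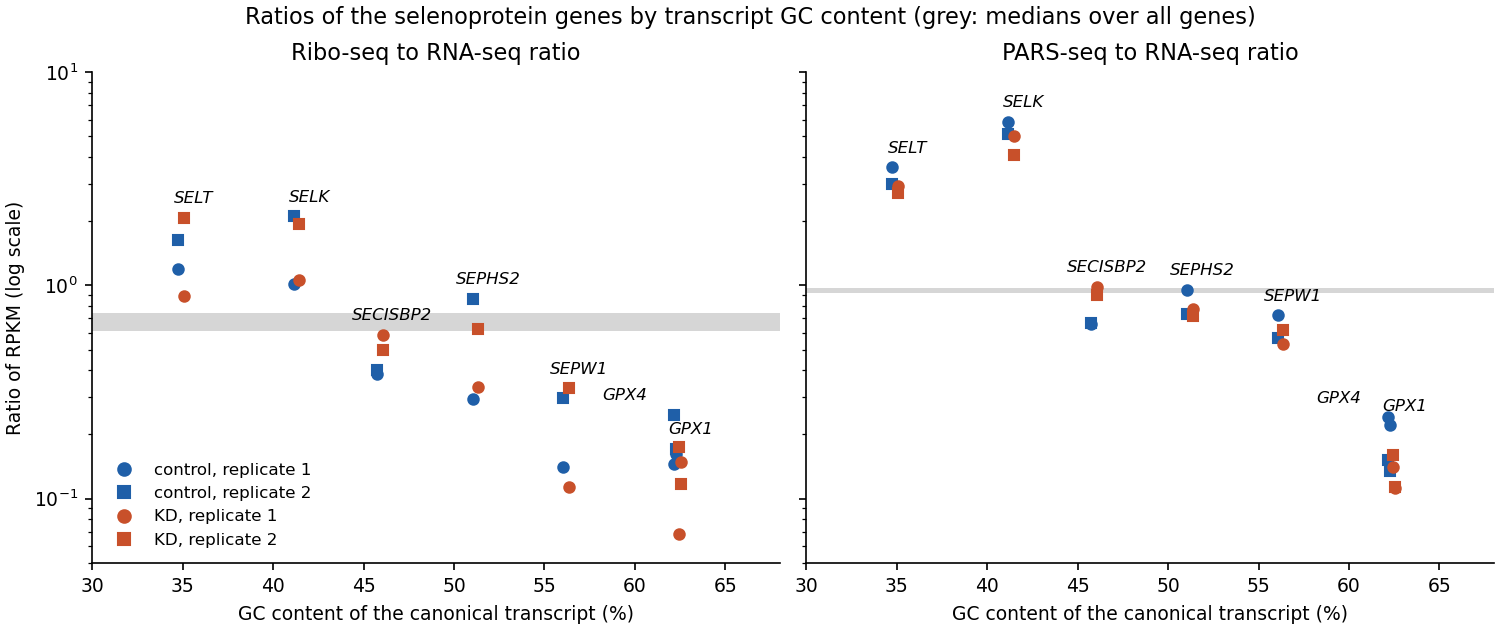
Ribo-seq to RNA-seq ratio (left) and PARS-seq to RNA-seq ratio (right) of the 7 members, both on a log scale, against the GC content of the transcript in percent; points are replicates, control in blue and KD in orange, and the grey band spans the median genes of the 4 columns. *GPX1* and *GPX4* at about 62% GC lie below the band on both sides, and *SELT* (34.9%) and *SELK* (41.3%) lie above it.

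Knockdown was compared with control in RNA-seq first, where 1 library per condition allows no test. The KD to control ratio was 0.919 (0.90 to 0.940) for *GPX1* and 1.01 (0.988 to 1.03) for *GPX4*. It was 1.08 (1.03 to 1.14) for *SEPHS2* and 0.864 (0.796 to 0.938) for *SECISBP2*. *SEPW1* (1.01, 0.943 to 1.08), *SELT* (1.10, 0.996 to 1.22) and *SELK* (0.961, 0.822 to 1.12) had intervals that held 1. No member past the filter differed by more than 1.5-fold (0 of 7), against 9.13% of 10946 genes, 4.66% lower and 4.47% higher. *SEPP1*, below the filter, had 164 reads in control and 68 in KD, an RPKM ratio of 0.559 (0.415 to 0.746). In bulk samples such as these, fewer cells of a type and less RNA per cell cannot be told apart.

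In Ribo-seq no member differed between KD and control by more than the spread between replicates in the test. *GPX1* was at 67.9 and 71.5 RPKM in control and at 57.2 and 45.0 in KD, where both KD values lay below both control values. *SECISBP2*, at 4.06 and 4.25 in control against 5.34 and 4.56 in KD, was the only member with both KD values above both controls. *GPX4* was at 69.2 and 117 in control against 32.7 and 83.2 in KD, and the groups overlapped. Between libraries of the same number, the KD to control ratio of *GPX4* was 0.473 (0.331 to 0.671) and 0.710 (0.606 to 0.830). A replicate block that pairs these libraries, which the labels link only by number, did not call it (limma adjusted p = 0.477). Over genes, Ribo-seq libraries of the same number deviated together, at a correlation of 0.811. Non-overlap in the direction of *GPX1* was found for 1 of 7 members and 7.12% of 10882 genes, and in the direction of *SECISBP2* for 1 of 7 and 10.7%. With limma on log2(RPKM + 1), *GPX1* differed by -0.45 (SE 0.49, 95% interval -1.68 to 0.78), *GPX4* by -0.77 (SE 0.67, -2.48 to 0.94) and *SECISBP2* by 0.20 (SE 0.38, -0.76 to 1.17), each with an adjusted p of 1.00. Limma called 0 of 7 members and 0% of 10882 genes, with 43 genes at an unadjusted p under 0.05, none of them a member. With the replicate block 143 genes were called, again none of them a member. The main fit leaves the pairing out, so shared deviations add to its spread, and 0 calls do not show an absence of change. Without the library labelled KD replicate 2 the log2 differences were -0.28 for *GPX1*, -1.43 for *GPX4* and 0.30 for *SECISBP2*. *GPX4* ranged from -1.43 to -0.11 over the libraries left out, with -0.11 when KD replicate 1 was omitted. The remaining members had differences between -0.09 and 0.11 whose direction depended on single libraries: without control replicate 2, *SEPHS2*, *SEPW1* and *SELK* were at 0.71, 0.44 and 0.40 in place of -0.03, -0.05 and -0.09, and without KD replicate 1 at 0.40, 0.66 and 0.32. In the other direction, they were at -0.77, -0.54 and -0.59 without control replicate 1, and at -0.46, -0.76 and -0.51 without the library labelled KD replicate 2. *SELT* (0.11) was at -0.10 without control replicate 1 and -0.44 without the library labelled KD replicate 2. The study calls the replicates biological, but whether they were separate cultures is not stated, so p-values measure only the spread between these samples.

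Translation efficiency was compared as the Ribo-seq difference minus the RNA-seq difference, in 1 limma fit over the 4 Ribo-seq and 2 RNA-seq libraries, in which RNA-seq was assumed to vary like Ribo-seq. The ratio of *GPX1* was lower in both KD replicates than in both controls, and that of *SECISBP2* higher, each 1 of 7 members, against 7.94% and 11.3% of 10140 genes. The fitted log2 difference was -0.33 for *GPX1* (SE 0.86, 95% interval -2.46 to 1.80) and 0.39 for *SECISBP2* (SE 0.70, -1.34 to 2.13), with adjusted p of 1.00 in limma. *GPX4* was at -0.79 (SE 1.15, -3.64 to 2.07). Limma called 0 of 7 members and 0% of 10142 genes, with 2 genes at an unadjusted p under 0.05, and leaving out Ribo-seq KD replicate 1 gave 1 call. Intervals this wide do not exclude changes in either direction. On simulated data this fit recovered 0% of 2-fold and 3.5% of 4-fold changes. The simulated libraries varied independently with 1 spread for all genes, unlike the real ones, so these rates need not hold here. Without the library labelled KD replicate 2, *GPX1* was at -0.16, *GPX4* at -1.45 and *SECISBP2* at 0.49, whereas omitting KD replicate 1 put *GPX4* at -0.12.

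**Figure D3:**
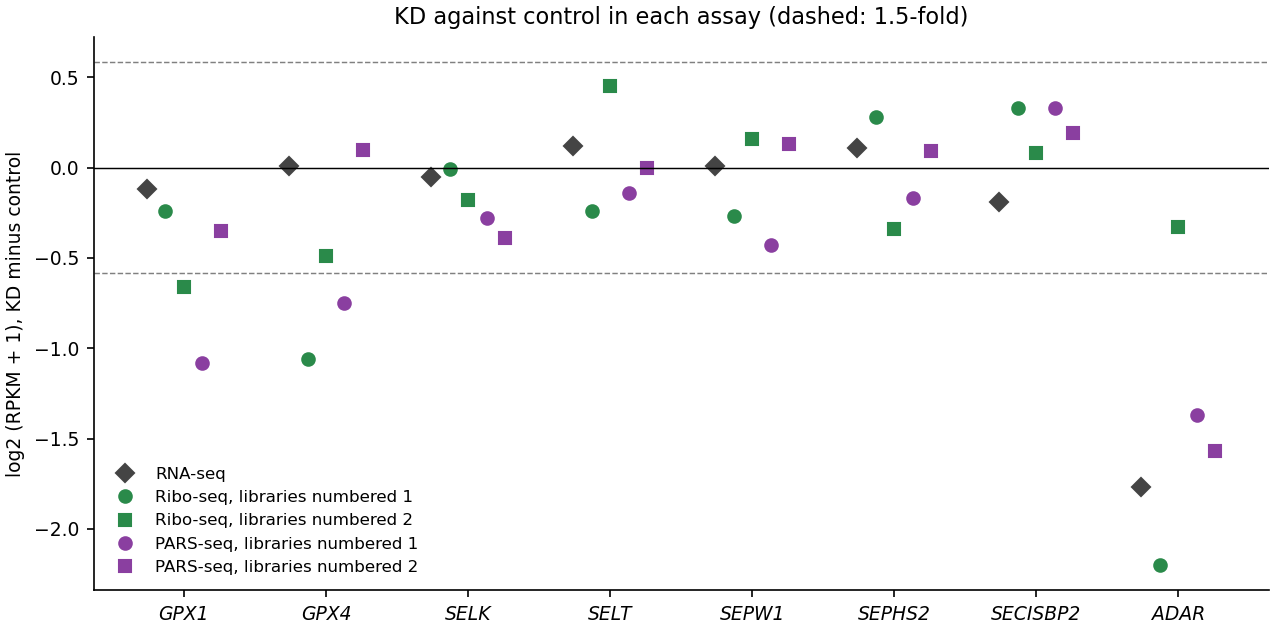
KD to control differences of the members and of *ADAR*, as log2 ratios of RPKM + 1, in RNA-seq (diamonds), Ribo-seq (green) and PARS-seq (purple); each point is 1 KD column minus the control column of the same number (circles 1, squares 2), and dashed lines mark 1.5-fold. *ADAR* lies at -1.77 in RNA-seq, and *GPX1* lies below 0 in all 5 comparisons.

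PARS-seq RPKM of *GPX1* was 92.6 and 56.4 in control against 43.2 and 43.9 in KD. Both KD values were below both controls, and the controls differed from each other by more than control replicate 2 differed from KD. *SELK* was at 70.3 and 62.0 in control against 57.9 and 47.1 in KD, also without overlap. *SECISBP2* was at 6.95 and 7.04 in control against 8.98 and 8.19 in KD, with both KD values higher. *GPX4* (115 and 71.9 against 67.5 and 77.0), *SEPW1* (41.2 and 32.2 against 30.4 and 35.3), *SEPHS2* (33.1 and 25.3 against 29.3 and 27.0) and *SELT* (20.8 and 17.4 against 18.9 and 17.4) overlapped or touched. Non-overlap with KD lower was thus found in 2 of 7 members and 27.1% of 11153 genes, and with KD higher in 1 of 7 and 33.3%. The share with KD lower is near the background, and the share with KD higher is below it. With only 7 members, neither is a result about them. With columns centred on their medians, 3418 genes were lower and 3347 higher without overlap, in place of 3028 and 3715. *GPX1* was below control in both Ribo-seq and PARS-seq, as were 3.30% of 10339 genes, and *SECISBP2* above, as were 6.02%. When replicate 1 or replicate 2 was left out, the rule became a 1.5-fold difference in the other replicate, and 1766 or 2266 genes passed it in place of 6743 without overlap.

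Marker levels also differed between the siRNAs in the same columns. The summed PARS-seq level of the leukocyte list was 5.04 and 4.06 RPKM in control and 1.48 and 1.72 in KD, almost all of it *CD68*, with *PTPRC* and *LYZ*, 2 of the 3 genes, under 1 RPKM throughout. The fibroblast list, of which *COL1A1* was most abundant, summed to 21.1 and 30.2 in control against 17.2 and 19.8 in KD, with 1 of 3 genes under 1 RPKM throughout. In RNA-seq, where *GPX1* had a ratio of 0.919, these sums were 22.7 and 15.6 for the leukocyte list and 57.8 and 42.9 for the fibroblast list. In Ribo-seq the groups overlapped, at 14.1 and 1.95 in control against 6.14 and 3.14 in KD for the leukocyte list and 20.1 and 14.5 against 19.8 and 11 for the fibroblast list. Their part in the values of *GPX1* and *SELK* was not tested.

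Read starts of the individual S1 and V1 libraries, from which the PARS-seq RPKM also derive, were available for single transcripts, and transcripts of *GPX1* and *SEPW1* could be matched to members. They were matched through a list that the study selected on these samples for a KD to control difference in structure ratio, so they are not an unselected set. The libraries held 96618292 to 214584779 read starts. The S1 library of control replicate 1 listed only 4722 transcripts, against 21052 to 22402 in the other 7, so S1 comparisons were limited to these. The *GPX1* transcript of 921 bases received 155 and 91.4 S1 read starts per 1000000 in control, against 67.8 and 75 in KD, counted without the most covered transcript. With V1 it received 187 and 132 in control against 98.9 and 100 in KD. Both KD libraries were thus below both control libraries with either nuclease, and control replicate 1 was highest with either nuclease. *SEPW1*, of 893 bases, received 49.4 and 38.7 with S1 in control and 37.4 and 43.9 in KD, and 22.6 and 19.2 with V1 in control and 18.9 and 21.8 in KD, so that its groups overlapped.

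In the limma fit across 4721 transcripts, S1 read starts of *GPX1* were lower in KD by a log2 difference of -0.73 (SE 0.24, 95% interval -1.22 to -0.24, adjusted p = 0.0365), lower in 2 of 2 KD libraries. *GPX1* was 1 of 2 members called, against 15.8% of the transcripts tested, or 9.28% called lower. V1 read starts of *GPX1* differed by -0.77 (SE 0.23, -1.28 to -0.25, limma adjusted p = 0.0615), so 0 of 2 members were called, against 10.4% of 16885 transcripts, or 6.52% called lower, and 4365 were at an unadjusted p under 0.05. The replicate block given below called *GPX1* with V1 (limma adjusted p = 2.23e-07), although the labels link its pairs only by number. *SEPW1* differed by -0.10 (SE 0.22, limma adjusted p = 0.809) with S1 and -0.14 (SE 0.21, limma adjusted p = 0.717) with V1. The S1 difference of *GPX1* depended on control replicate 1: without that library it was -0.37 and no longer called. Without S1 KD replicate 1 it was -0.67, about as large, though also not called. Over the libraries left out it ranged from -1.10 to -0.37. Each omission leaves 1 library in a group, so that the other group alone gives the spread. The V1 difference was -1.09 without V1 control replicate 2, within a range of -1.09 to -0.45 over the libraries left out. Calls across all transcripts moved as well, from 744 to 390 without S1 control replicate 1 and 478 without S1 KD replicate 2, and from 1761 to 1015 without V1 KD replicate 2 and 3429 without V1 control replicate 2. Scaling to library size in place of TMM put the median transcript at -0.36 with S1 and -0.14 with V1, in place of 0.00 and 0.02, and relative to that median *GPX1* was at -0.74 and -0.79.

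The transcripts of 3 other selenoprotein genes could be matched. *SEPX1*, a methionine sulfoxide reductase, received 37.2 and 29.9 S1 read starts per 1000000 under control siRNA and 22.3 and 23.1 under siADAR1, and 65.3 and 59.3 against 44.5 and 41.5 with V1. Its KD values were thus below its controls with either nuclease, by -0.55 (SE 0.23, limma adjusted p = 0.109) and -0.64 (SE 0.19, limma adjusted p = 0.0624), and neither passed the threshold in the main fit. The V1 difference of *SEPX1* was -0.78 without V1 control replicate 2, within a range of -0.78 to -0.50 over the libraries left out. With library-size scaling, which moved the median transcript as given above, the differences were -0.91 (limma adjusted p = 0.0419) with S1 and -0.80 (limma adjusted p = 0.0972) with V1. *SELS* differed by -0.11 and -0.33 and *TXNRD2*, a mitochondrial thioredoxin reductase, by -0.24 and -0.33 with S1 and V1, with limma adjusted p of 0.800, 0.323, 0.519 and 0.323.

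**Figure D4:**
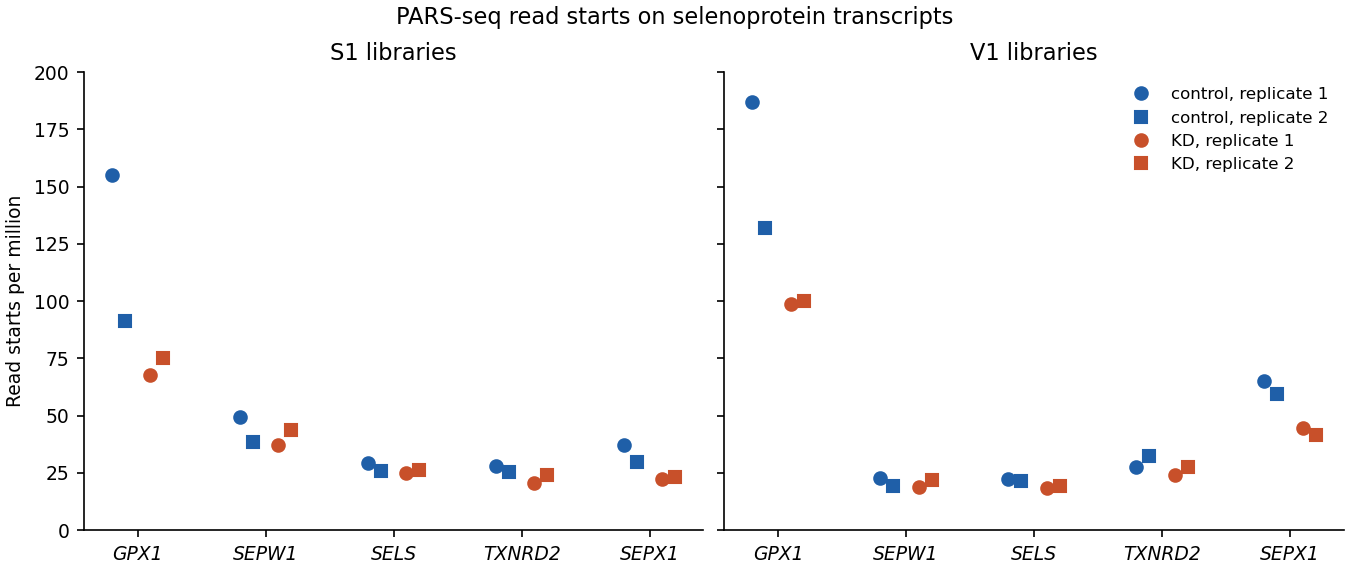
Read starts per 1000000 on the transcripts matched to selenoprotein genes, in the S1 and the V1 libraries; each point is 1 library, control in blue and KD in orange, replicate 1 as circles and replicate 2 as squares. With S1, *GPX1* lies at 155 and 91.4 in control against 67.8 and 75 in KD.

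The *GPX1* profile was compared base by base, on a transcript that the study listed for a structure difference between KD and control. The S1 base with the most read starts was base 573 in all 4 S1 libraries, which took 8.54% and 7.92% of its S1 read starts in control against 7.79% and 6.20% in KD. With V1 it was base 275 in both replicate 1 libraries and base 634 in both replicate 2 libraries. Pearson correlations of log2 read starts per base between KD and control libraries were 0.865 to 0.877 with S1 and 0.850 to 0.877 with V1, next to 0.857 and 0.893 (S1) and 0.837 and 0.870 (V1) between replicates of 1 siRNA. Correlations between KD and control were thus no lower than the lower of the correlations between replicates, where bases of 1 transcript are not independent. Between S1 and V1 the correlation was 0.186 to 0.274. For *SEPW1* it was 0.821 to 0.851 with S1 and 0.718 to 0.772 with V1 between KD and control, and 0.842 to 0.867 and 0.725 to 0.744 between replicates.

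**Figure D5:**
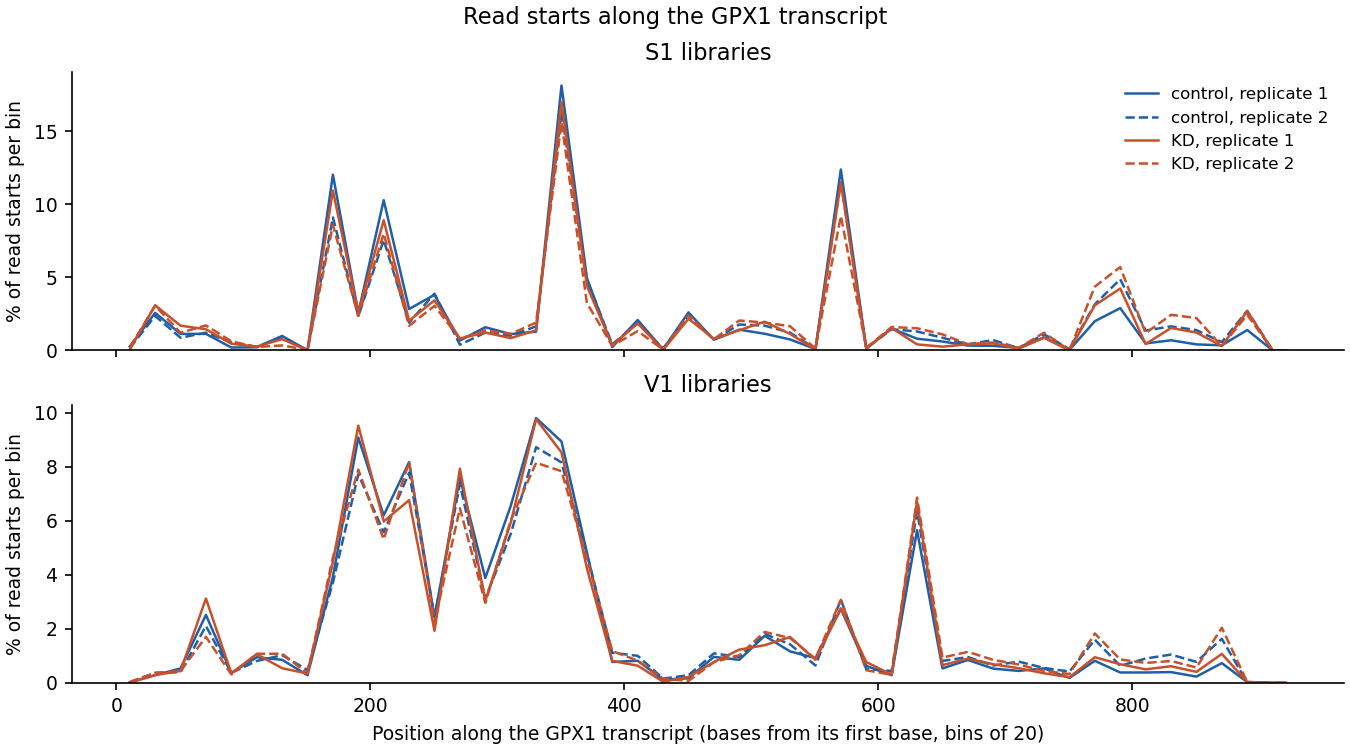
Percentage of the *GPX1* read starts in each bin of 20 bases along its 921 bases, in the S1 (top) and the V1 libraries (bottom), with control lines in blue, KD lines in orange, replicate 1 solid and replicate 2 dashed. The S1 peak that holds base 573 is present in all 4 libraries, as is the taller bin from base 341 to 360.

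The other selenoprotein genes were described as a list. Of 25 human selenoprotein genes, the 8 selenoprotein members included, 18 passed the filter in each assay. In RNA-seq 1 of these was past 1.5-fold lower and none higher, against 4.66% and 4.47% of all genes past the filter. This was *SELM*, named here after its values were seen, at 9.13 RPKM in control and 5.65 in KD. In PARS-seq 9 of the 18 had both KD values below both controls and 3 had both above, against 27.1% and 33.3% of all genes past the filter. The table joins 3 genes of this list with others in 1 row, among them *C11orf31*, counted below, and *TXNRD3*, counted above. In Ribo-seq 1 (*GPX1*) was below and 1 (*EPT1*, named after its values were seen) above, against 7.12% and 10.7%. The median log2 difference over the 25 genes was -0.06 in RNA-seq, -0.09 in Ribo-seq and -0.15 in PARS-seq, beside -0.01, 0.08 and 0.04 over all genes past the filter. *TXNRD1*, a thioredoxin reductase whose row is shared with *EID3*, was at 95.3 and 73.5 RPKM in RNA-seq, a ratio of 0.771 (0.755 to 0.787). *SEP15*, of the endoplasmic reticulum, was at 28.6 and 19.9, a ratio of 0.694 (0.644 to 0.746), and *SELS* (also *VIMP*) at 23.2 and 19.3, a ratio of 0.834 (0.773 to 0.90). Others were higher, with names given after their values were seen: *SEPN1* had a ratio of 1.30 (1.24 to 1.36), *SEPX1* of 1.12 (1.04 to 1.22), and *EPT1* one with an interval of 1.32 to 1.69 and a log2 difference of 0.37 with 1 RPKM added. In Ribo-seq *TXNRD1*, *SEP15* and *SELS* overlapped between conditions, with *TXNRD1* at 66.8 and 116 in control against 68.4 and 113 in KD, *SEP15* at 51.3 and 34.0 against 31.7 and 39.1, and *SELS* at 23.1 and 8.04 against 23.6 and 10.

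Of the 13 genes of selenocysteine insertion and selenium handling, *SECISBP2* included, 12 passed the filter in Ribo-seq, 10 in RNA-seq and 13 in PARS-seq. None was past 1.5-fold in RNA-seq, against 9.13% of all genes past the filter. In Ribo-seq 3 of 12 had both KD values above both controls and none had both below, against 10.7% and 7.12% of all genes past the filter, and these were *SECISBP2*, *SECISBP2L* and *TRNAU1AP*, the last 2 named after their values were seen. In PARS-seq 6 of 13 were above and 3 below, against 33.3% and 27.1%, where 4 of the 13 genes share a row with others. The list median was 0.01 in RNA-seq, 0.20 in Ribo-seq and 0.12 in PARS-seq, on the log2 scale. Among 3 homologues without selenocysteine (*GPX5*, *GPX7* and *GPX8*) 1 passed the filter, *GPX8*, with an RNA-seq ratio of 0.978 (0.882 to 1.08). No gene of the 3 lists was past 1.5-fold in the same direction in all 5 comparisons, and in the main limma fits only *GPX1* was called, where the S1 and V1 fits held 5 of the listed genes.

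The members did not share 1 pattern over the 10 columns. Pearson correlations of log2(RPKM + 1) over the 36 pairs of members ran from -0.800 (*SEPP1* and *SELT*) to 0.968 (*SELT* and *SELK*), with a median of 0.329. *GPX1* and *GPX4* correlated at 0.922 and *SEPHS2* and *SEPW1* at 0.908. These coefficients describe 10 columns that differ mostly by assay, and many genes were as alike: 291 genes were above 0.9 with *GPX1* and 304 with *GPX4*. Among genes with a mean of at least 10 RPKM, the one most like *GPX1* was *PTTG1IP* (0.991), and for *GPX4* it was *MZT2B* (0.990). For *SEPHS2* it was *DNAJC14* (0.974), for *SECISBP2* *SUGP2* (0.990), for *SEPW1* *RHOD* (0.990) and for *SELK* *SOS2* (0.991). The low genes *GPX2* and *SEPP1* were most like *PPP2R5C* (0.918) and *FAM96B* (0.969).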

How the data were processed

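The RPKM values were deposited by the authors, who aligned reads to hg19 with Bowtie2 in local mode, kept uniquely aligned reads and counted them on RefSeq transcripts with coverageBed. Ribo-seq and RNA-seq columns hold 1 library each, and the PARS-seq columns hold the mean that the authors took over the S1 and V1 library of a replicate, so they are given as values with no SD and no test. Read starts, other whole-number values deposited by the authors with 1 number per base of a transcript, came from reads trimmed with cutadapt and aligned with Bowtie2. Tool versions were not given in the sources used here. The members and lists were chosen with earlier results of these data known. All 9 members were named, as were *TXNRD1*, *SEP15* and *VIMP* and any listed gene called in a test or past 1.5-fold in the same direction in all 5 comparisons. For each member but *SELT*, whose result is not reported here, the gene with the highest correlation was named, and for read starts the transcripts that a supplementary list of structure ratios, drawn up by the study on these samples from transcripts whose structure ratio differed between KD and control, pairs with a selenoprotein gene.

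Because the values are RPKM, the count test of the study was replaced by limma 3.58.1 (R 4.3.3) on log2(RPKM + 1), trended on the mean, over genes with a mean of at least 1 RPKM, so that changes of low genes are understated. Read starts were summed per transcript, kept at 10 or more in 2 libraries and 15 in total, scaled with TMM and fitted in limma on the log2 scale with 0.5 added, since the cells hold 1 number per base and no count per gene. Differences were called at a Benjamini-Hochberg adjusted p under 0.05, over all genes or transcripts. Whole reads were recovered from the RPKM steps, and the procedures were tested on simulated data. Selenocysteine codons and GC content came from GENCODE version 44 lifted to GRCh37. Other steps used Python 3.11.15, numpy 2.4.6, scipy 1.17.1, pandas 2.3.3 and matplotlib 3.10.9. Other pseudocounts, filters, scalings, a replicate block and the omission of each library were tried. The count of genes whose Ribo/RNA ratios did not overlap between siRNAs was added after the values were seen. Values of structure scores, editing sites and fold changes of the study were not used here.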

Additional observations from a re-analysis of the deposited data

How the results depend on the processing

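Over the alternatives, 42 values of the comparisons kept within 1.5 times the main count and 19 did not, where the 42 include Ribo-seq and translation efficiency counts that were 0 in both fits, and a pseudocount cannot alter non-overlap in PARS-seq. Of the values of single genes, 201 kept their direction and their side of the threshold, 20 changed sign, 7 passed the threshold and 3 no longer did. In Ribo-seq and translation efficiency the members were at adjusted p of 1.00 in the main fits, so keeping their side, like a count that stays at 0, is no sign of stability. With a pseudocount of 5, 391 genes were past 1.5-fold in RNA-seq in place of 999, and with a filter at 10 RPKM 455, where fewer genes were tested. That filter left 3262 genes without overlap in PARS-seq in place of 6743, and leaving out a replicate gave 1766 to 2266. Member differences past 1.5-fold numbered 2 over the 3 assays, 6 with a pseudocount of 0.1 and 1 to 4 with a Ribo-seq library or a PARS-seq replicate of both conditions left out.

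Leaving out libraries gave 0 to 0 Ribo-seq calls, 0 to 1 for translation efficiency, 390 to 878 with S1 and 1015 to 3429 with V1. Over the transcripts listed in the 3 S1 libraries other than control replicate 1, an alternative chosen after seeing the data, 1446 were called, and *GPX1* was at -0.45 (limma adjusted p = 0.441). The omission ranges of members that changed sign were, in Ribo-seq, -0.77 to 0.71 for *SEPHS2*, -0.76 to 0.66 for *SEPW1*, -0.59 to 0.40 for *SELK* and -0.44 to 0.66 for *SELT*. For translation efficiency they were -0.88 to 0.60, -0.77 to 0.64, -0.53 to 0.46 and -0.56 to 0.53 in the same order, and *SELT* was at 0.02 with a pseudocount of 5. *SEPW1* ranged from -0.27 to 0.06 with S1 and from -0.33 to 0.05 with V1. The causes were not tested. *GPX1* kept its sign, from -1.10 to -0.37 with S1 and from -1.09 to -0.45 with V1.

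With library-size scaling 70 S1 transcripts were called higher and 878 lower, against 306 and 438 with TMM, and 346 and 1334 with V1, against 660 and 1101. Without the most covered transcript the V1 split was 895 and 898. The V1 difference of *GPX1* was -0.93 (limma adjusted p = 0.0475) with library-size scaling, which lowered the median transcript too.

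The replicate block, with which libraries of 1 number are paired, gave 143 calls in Ribo-seq, 4 for translation efficiency, 1448 with S1 and 5887 with V1, and *GPX1* was called with V1 (-0.77, limma adjusted p = 2.23e-07), as was *SEPX1* with S1 (-0.55, limma adjusted p = 0.0106) and V1 (-0.64, limma adjusted p = 1.34e-05). Deviations of libraries with the same number correlated at 0.811 in Ribo-seq, 0.467 with S1 and 0.388 with V1 over genes. What libraries of the same number share is not stated, and there were only 2 pairs. With 1 library for each siRNA, RNA-seq allowed no test. On simulated data the main Ribo-seq fit recovered 0% of 2-fold and 56.5% of 4-fold changes, in libraries that varied independently with 1 spread for all genes. The real libraries of the same number deviated together, so these rates need not hold for them. The Ribo-seq libraries held a median of 30 to 87.0 reads per gene, and the part of depth in what was detected was not tested.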
